A study of Mus musculus with 18 samples.

Results

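The nuclear genes for the subunits of oxidative phosphorylation were described in RNA of whole mouse testis. Members were chosen by symbol: Nduf genes of complex I without the assembly factors, Sdha to Sdhd, Uqcr genes, Cox4 to Cox8 genes and Atp5 genes without those that begin with Atp5s. This gave 87 genes of 20979 in the table, of which 41 were in complex I, 4 in complex II, 8 in complex III, 18 in complex IV and 16 in complex V. Of these, 85 reached 1 RPKM (reads scaled by transcript length and by the total of the library) in at least 3 libraries and were tested, and Cox6a2 and Cox8b did not. That pair is described by its values alone. Complexes were assigned from the start of the symbol alone, so a member's protein may sit in another complex.

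The series held 18 libraries from testes of ICR mice, an outbred stock, aged 10 weeks, with 3 libraries in each of 6 groups. The HFD_STZ_AOS_FMT and HFD_STZ_control_FMT groups had the high-fat diet, STZ and FMT (transfer of gut microbes), and the label ties the first FMT to AOS at 10 mg/kg and the second to controls. The HFD_STZ_AOS group had the diet, STZ and AOS at 10 mg/kg, and the HFD_STZ group had the diet and STZ alone. The AOS group had AOS at 10 mg/kg without the diet or STZ, and the control group had none of these. AOS is given only by its abbreviation. No label names the donors of the FMT or the dose of STZ, or says which libraries came from separate animals. The p-values therefore measure the spread between libraries, which may be technical. The submitters' design text asks about effects of FMT on testes that it describes as damaged by the diet and STZ, and damage itself is not measured here.

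Oxidative phosphorylation is the chain by which mitochondria turn the energy of food into ATP. Complexes I and II take electrons from NADH and succinate, complex III passes them to cytochrome c, complex IV hands them to oxygen, and complex V, the ATP synthase, uses the proton gradient so formed. Most subunits are encoded in the nucleus and made in the cytosol, while a catalytic core of complexes I, III, IV and V is encoded in mitochondrial DNA, whose genes were not analysed here. Testis is known for its own forms of some nuclear subunits, among them Cox6b2, Cox7b2 and Cox8c of complex IV. Its germ cells also make a testis cytochrome c, Cyct. In whole testis, fewer cells of a type and less RNA per cell cannot be told apart.

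The libraries were alike over all tested genes, with correlations of 0.988 to 0.995 within a group and 0.984 to 0.994 between groups. Depth is not stated, and the size of 1-read steps among low values gave a relative depth of 0.982 to 1.024, from 7 to 24 genes a library and within a search window that bounds it. In each library the log2(RPKM + 1) of each tested gene, less that gene's mean over the 18 libraries, was also set against transcript length. The slope is thus relative, and its sign compares a library with the others. Per doubling of length it was 0.0222 to 0.0449 log2 units in HFD_STZ and 0.0231 to 0.0498 in control libraries. It was -0.0741 to 0.0058 in the other 12. Subunit transcripts are short, with a median of 724 bases against 2486 bases over all tested genes, so this slope is given beside the results. Crisp1, a gene of the epididymis, was over 100 RPKM in 1 library each of HFD_STZ_AOS_FMT, HFD_STZ_control_FMT, HFD_STZ_AOS and control, and results were also computed without these 4.

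Subunit genes made up 1.59% to 1.86% of the summed RPKM of a library. Their levels differed widely within each complex. In complex I, Ndufa12, an accessory subunit of the matrix arm, was highest with a mean of 367 RPKM over the 18 libraries, and Ndufb4b was lowest at 1.04 RPKM. In complex II, Sdhb, the iron-sulfur subunit, was highest at 75.3 RPKM, and the membrane anchor Sdhd was lowest at 22.7 RPKM. Complex III ran between Uqcrb at 240.9 RPKM and Uqcrq at 49.2 RPKM, both small accessory subunits. Complex V ran between Atp5b, the catalytic beta subunit, at 361 RPKM and Atp5g3, a gene for the c-ring subunit, at 51.3 RPKM. Complex IV held both the 2 highest members, Cox6b2 and Cox8c, and the lowest. Reads of near-identical copies (Ndufb4, Ndufb4b and Ndufb4c, and Ndufa11 and Ndufa11b) may be split between genes. GENCODE vM21 lists Ndufb4c and Ndufa11b as processed pseudogenes and does not hold Ndufb4b. These rows were kept by the symbol rule and count as members throughout. Exons of 24 of the 87 members overlap another gene's exons, so these levels are uncertain where strand was not used. For Atp5o, Ndufb2, Ndufb8 and Ndufb9 an overlapping gene is on the same strand, which strand cannot resolve.

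The testis forms of complex IV far outweighed their counterparts in every library. Cox6b2, whose ubiquitous counterpart Cox6b1 links the monomers of the complex IV dimer, averaged 565 ± 44.8 RPKM, against 63.2 ± 4.87 RPKM for Cox6b1 (SD, n = 18 each). Cox8c averaged 435.5 ± 34.4 RPKM, against 71.1 ± 8.76 RPKM for Cox8a. Cox7b2 averaged 292 ± 41.8 RPKM, against 7.03 ± 0.780 RPKM for Cox7b. Cox6b2 thus had the highest level of the 87 members and rank 115 among all genes, Cox8c was next, and Cox7b2 ranked 9 among the members. In GENCODE vM21 (GRCm38) Cox6b2 lies at chr7:4751792-4753094, Cox8c at chr12:102899316-102900526 and Cox7b2 at chr5:71442824-71548205. The ratio of testis form to counterpart was 6.25 to 10.8 for Cox6b2, 4.62 to 7.64 for Cox8c and 28 to 52.6 for Cox7b2.

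**Figure D1:**
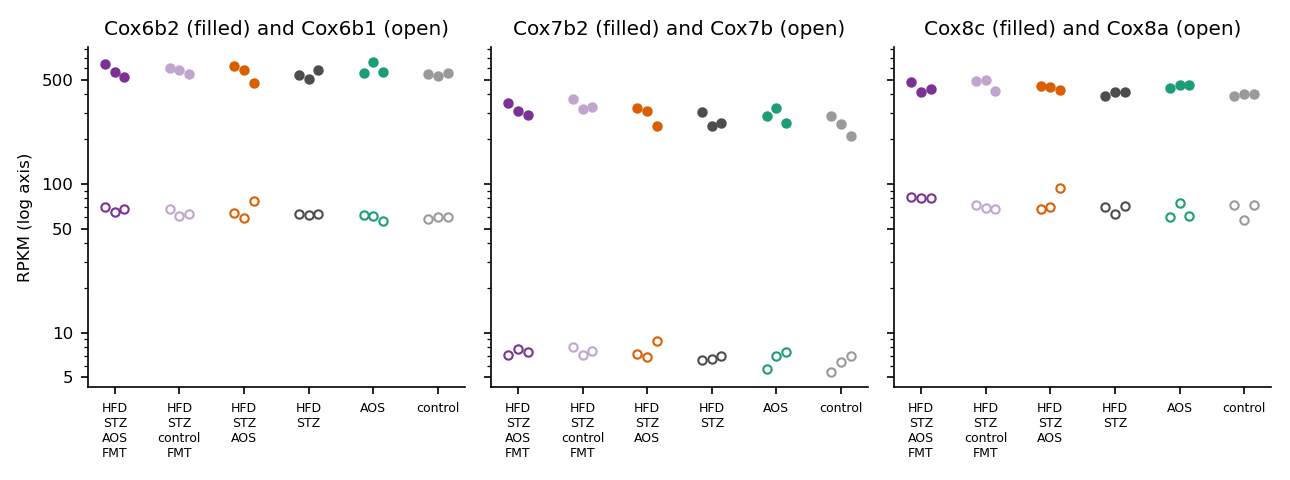
RPKM, on a log axis, of the testis forms (filled) and their counterparts (open) in the 18 libraries, 3 points a group. Cox6b2, Cox7b2 and Cox8c lie above Cox6b1, Cox7b and Cox8a in each library, with no overlap of the 2 forms in any group.

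The share of the testis form varied little between groups. Cox6b2 made up 89.5% ± 0.847 of Cox6b2 plus Cox6b1 in HFD_STZ_AOS_FMT, 90.1% ± 0.462 in HFD_STZ_control_FMT, 89.2% ± 2.58 in HFD_STZ_AOS, 89.6% ± 0.614 in HFD_STZ, 90.8% ± 0.742 in AOS and 90.2% ± 0.301 in control libraries (SD, n = 3 each). The ranges overlapped for every pair of groups, and the lowest value of all, 86.2%, was 1 library of HFD_STZ_AOS. Group means of the Cox7b2 share lay between 97.4% ± 0.741 in HFD_STZ_AOS and 97.8% ± 0.0657 in HFD_STZ_control_FMT. Those of the Cox8c share lay between 84.6% ± 1.02 in HFD_STZ_AOS_FMT and 87.5% ± 1.32 in AOS. The HFD_STZ_AOS_FMT libraries had Cox8c shares of 83.7% to 85.7%, below the 86.0% to 87.8% of HFD_STZ_control_FMT. In that pair Cox8a, at 81.1, 80.6 and 79.8 RPKM in HFD_STZ_AOS_FMT, against 72.4, 69.2 and 67.8 RPKM in HFD_STZ_control_FMT, did not pass the test (log2 difference 0.20 ± 0.11, SE, limma adjusted p = 0.999).

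Cytochrome c, which carries electrons to complex IV, showed a like balance. Cyct was 129 to 169 RPKM and the somatic Cycs 16.4 to 22.3 RPKM, so that Cyct made up 87.3% to 89.6% of their sum. Forms known from other tissues were low. Cox7a1, the heart and skeletal muscle form, averaged 5.51 RPKM and was 1.02% to 4.73% of Cox7a1 plus Cox7a2. Cox4i2, known from lung, averaged 0.677 RPKM, and the muscle forms Cox6a2 and Cox8b were at most 0.520 and 0.680 RPKM, with Cox8b listed at 0 in 16 of the 18 libraries. No marker of the muscle list passed 0.790 RPKM, and of the brown fat list Ucp1 was at most 0.0800 RPKM and Elovl3 at most 0.56 RPKM, while Cidea was 4.17 to 6.31 RPKM. Ndufa4l2, known from hypoxic cells and pericytes, stood apart at 19.2 to 36.9 RPKM, although its exons overlap those of Shmt2 on the opposite strand.

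Promoters of the 2 pairs present in the RefSeq (GRCm38.p6) promoter set used here are shown, so that each testis form can be read beside its counterpart. Each is the 250 bases before the RefSeq start, 5′ to 3′ on the gene's strand, and capitals mark a match to an ETS motif, CCGGAAG or its reverse complement. Cox6b2 lies at chr7:4753095-4753344 (minus strand), Cox6b1 at chr7:30626115-30626364 (minus), Cox7b2 at chr5:71548206-71548455 (minus) and Cox7b at chrX:106015450-106015699 (plus).
Cox6b2: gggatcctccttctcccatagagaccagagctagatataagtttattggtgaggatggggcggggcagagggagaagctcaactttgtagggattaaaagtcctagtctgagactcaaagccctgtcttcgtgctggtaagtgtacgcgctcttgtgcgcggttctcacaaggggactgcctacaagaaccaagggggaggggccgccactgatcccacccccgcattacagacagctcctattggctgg
Cox6b1: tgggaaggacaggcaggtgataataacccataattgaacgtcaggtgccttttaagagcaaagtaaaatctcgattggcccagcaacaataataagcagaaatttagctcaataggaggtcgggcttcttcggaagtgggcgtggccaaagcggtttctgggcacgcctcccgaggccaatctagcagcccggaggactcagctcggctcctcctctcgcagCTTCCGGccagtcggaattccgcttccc
Cox7b2: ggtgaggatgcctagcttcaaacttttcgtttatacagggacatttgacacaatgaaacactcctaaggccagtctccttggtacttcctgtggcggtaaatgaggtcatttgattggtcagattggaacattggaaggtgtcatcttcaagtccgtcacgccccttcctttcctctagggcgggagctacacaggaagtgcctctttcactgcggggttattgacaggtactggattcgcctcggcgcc
Cox7b: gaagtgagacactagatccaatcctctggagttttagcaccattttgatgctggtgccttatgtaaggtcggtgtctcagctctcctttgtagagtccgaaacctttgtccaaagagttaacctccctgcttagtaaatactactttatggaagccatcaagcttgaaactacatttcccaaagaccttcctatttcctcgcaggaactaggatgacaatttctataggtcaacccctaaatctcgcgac
The Cox6b1 window held 1 ETS match at its end, beside the RefSeq start, and 14 CpG, against 8 CpG and no match for Cox6b2. In GENCODE vM21 Cox6b1 reaches to 30626151, so that match lies inside the gene there. The Cox7b2 window held 9 CpG and the Cox7b window 5, with no match in either. Only these exact letters were searched, so a window without a match may still hold another form of ETS site.

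Among the 68 members with a promoter in the table, 12 (17.6%) held the ETS letters on either strand, against 7.83% of all 27025 genes. The core of the motif of NRF1, a factor known for control of respiratory genes, was searched as GCGCA and GCGC with any base between them, and was in 13 of the 68 (19.1%), against 4.23% of all genes. These 13 were Atp5c1, Atp5g2, Atp5h, Atp5k, Cox6a1, Ndufa11, Ndufa5, Ndufa8, Ndufb4, Ndufs5, Ndufs6, Sdha and Sdhd. A cAMP response element, TGACGTCA, was in 4 of the 68 (5.88%), against 1.77% of all genes, namely Ndufa10, Ndufa11, Ndufb2 and Uqcrfs1. A match says only that the letters are there.

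Across groups the summed level of the 87 genes split the libraries in 2. It was 12019, 10515 and 10178 RPKM in HFD_STZ_AOS_FMT, 11267, 11014 and 10220 RPKM in HFD_STZ_control_FMT, and 11096, 10712 and 10226 RPKM in HFD_STZ_AOS. The HFD_STZ libraries had 9725, 9399 and 9913 RPKM. The AOS libraries had 10195, 10548 and 10161 RPKM, against 9721, 9422 and 9414 RPKM in control libraries. All 12 libraries with AOS or FMT thus lay above all 6 of HFD_STZ and control, and the length slopes divided the same libraries in the same way, so their part in the sum was not tested.

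**Figure D2:**
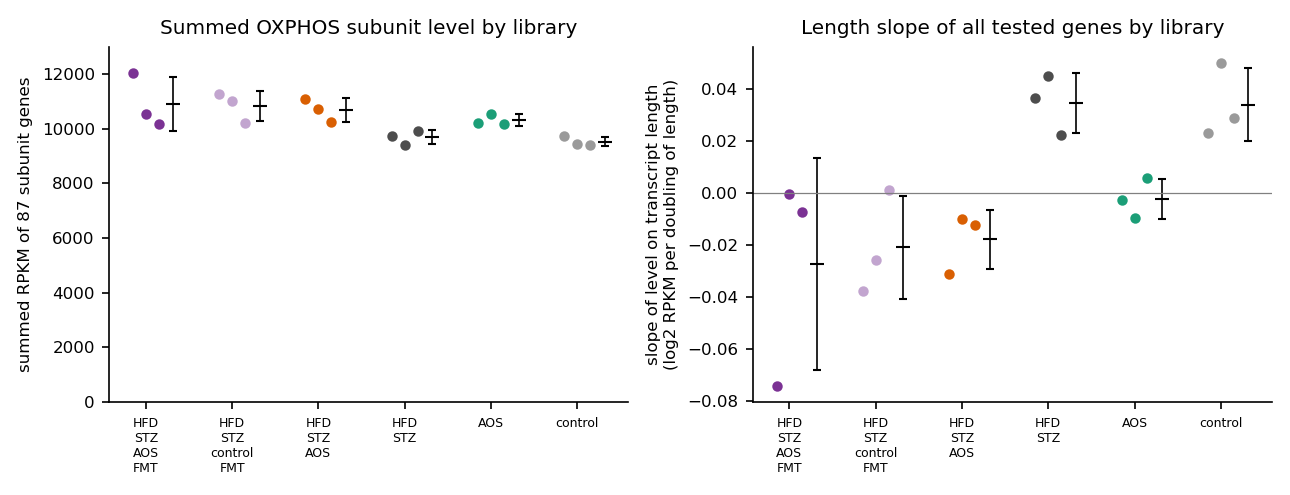
Left, summed RPKM of the 87 subunit genes by library; right, the slope of log2 RPKM on doubling of transcript length over all tested genes, with points for libraries and bars for the mean and SD (n = 3). The 12 libraries with AOS or FMT lie at 10161 to 12019 RPKM with slopes of 0.0058 or less, and the 6 of HFD_STZ and control at 9399 to 9913 RPKM with slopes of 0.0222 or more.

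The sums of complexes I, III and V divided the 12 and the 6 libraries in the same way, and those of complexes II and IV did not. Complex I summed to 3691 ± 184 RPKM in HFD_STZ_AOS and 3298 ± 89.4 RPKM in HFD_STZ, and to 3523 ± 44.3 RPKM in AOS and 3235 ± 61.3 RPKM in control libraries (SD, n = 3 each). Complex IV summed to 3513 ± 226 RPKM in HFD_STZ_AOS and 3202 ± 148 RPKM in HFD_STZ, and to 3477 ± 116 RPKM in AOS and 3130 ± 94.1 RPKM in control, but replicate 3 of HFD_STZ_AOS, at 3261 RPKM, lay below replicate 3 of HFD_STZ, at 3333 RPKM. Complex III summed to 896 ± 33.4 RPKM in HFD_STZ_AOS and 820 ± 8.95 RPKM in HFD_STZ, and to 880 ± 15.8 RPKM in AOS and 824 ± 26.2 RPKM in control. Complex II, whose 4 genes are all nuclear and whose Sdha is also an enzyme of the citric acid cycle, had 171 ± 2.60 RPKM in HFD_STZ_AOS against 162 ± 3.75 RPKM in HFD_STZ. Its sums in AOS, 163.6 to 168.7 RPKM, overlapped those in control, 156.9 to 165.7 RPKM. In complex V the HFD_STZ_AOS libraries, at 2396 to 2420 RPKM, lay above HFD_STZ at 2176 to 2208 RPKM.

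The first comparison asked what AOS did to the subunits in mice on neither the diet nor STZ. No member passed the test of AOS against control (limma on log2(RPKM + 1), Benjamini-Hochberg adjustment over 13874 genes, threshold 0.05), and 0% of all genes did. At an unadjusted p under 0.05, 24 of the 85 members were higher in AOS and 2 lower, against 5.46% and 8.4% of all genes. For 32 members all AOS libraries lay above all control libraries, against 7.76% of all genes, and for 2 they lay below, against 14.8%. In 65 members the difference was above 0, against 40.2% of all genes. The median log2 difference of the members was 0.10, against -0.03 over all genes tested, and with a trend on transcript length removed it was 0.04.

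The smallest p values belonged to genes of complexes I, III and V. Ndufv3, a subunit of the NADH-oxidising module, was 45.1, 41.3 and 44.8 RPKM in AOS, against 33.5, 31.9 and 33.7 RPKM in control libraries (log2 difference 0.39 ± 0.09, SE, limma adjusted p = 0.161). Atp5k, subunit e of the membrane part of the ATP synthase, was 88.6, 58.7 and 87.6 RPKM in AOS, against 50.1, 50.7 and 52.1 RPKM in control (0.59 ± 0.14, adjusted p = 0.161). In both genes the groups did not overlap, and for Atp5k a single AOS library stood well below the other 2. Uqcrq, which sits beside cytochrome b in complex III, was 62.8, 51.5 and 53.2 RPKM in AOS, against 35.0, 42.9 and 36.1 RPKM in control (0.54 ± 0.16, adjusted p = 0.194). Among the members with lower values was Ndufs1, the largest subunit of complex I, at 28.2, 31.0 and 29.8 RPKM in AOS, against 31.8, 31.6 and 31.8 RPKM in control (-0.09 ± 0.04, adjusted p = 0.343).

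In mice with the diet and STZ, AOS went with higher values in 80 of the 85 members, against 47.7% of all genes. None passed the test of HFD_STZ_AOS against HFD_STZ, and 0% of all genes did. At an unadjusted p under 0.05, 30 members were higher and 0 lower, against 6.23% and 6.26% of all genes, and 36 members had groups that did not overlap with HFD_STZ_AOS higher, against 7.37% of all genes. None lay wholly below HFD_STZ, against 9.8%. The median log2 difference was 0.14 in the members and -0.01 over all genes, and it was 0.04 with the length trend removed. Without 1 library at a time it stayed between 0.12 and 0.16.

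Cox4i1, the regulatory subunit of complex IV to which ATP binds, led this comparison with 314, 281 and 291 RPKM in HFD_STZ_AOS, against 255, 246 and 262 RPKM in HFD_STZ (log2 difference 0.21 ± 0.05, SE, limma adjusted p = 0.199). Uqcr10, a small complex III subunit, was 175, 149 and 151 RPKM in HFD_STZ_AOS, against 127, 126 and 131 RPKM in HFD_STZ (0.30 ± 0.08, adjusted p = 0.199). Ndufb5, of the membrane arm of complex I, was 113, 108 and 109 RPKM in HFD_STZ_AOS, against 95.4, 95.6 and 99.2 RPKM in HFD_STZ (0.18 ± 0.05, adjusted p = 0.199). In these 3 genes every HFD_STZ_AOS library lay above every HFD_STZ library. Exons of Ndufb5 overlap Mrpl47 on the opposite strand.

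The 2 tests of AOS share no library. Of the 32 members whose AOS libraries all lay above control, 21 (65.6%) also had HFD_STZ_AOS wholly above HFD_STZ, which is 58.3% of the 36 found there. Over all tested genes, 294 were found in both, 27.3% of 1076 and 28.7% of 1023. These shares start from unlike bases, since HFD_STZ_AOS lay wholly above HFD_STZ in 36 of the 85 members but in 7.37% of all genes. The larger share is therefore not read as particular to the members. The 21 included Cox8c but neither Cox6b2 nor Cox7b2. The interaction of AOS with HFD_STZ, which tests whether the AOS difference itself changed, passed for 0 of the 85 members by limma (smallest adjusted p = 0.999), with 2 higher and 0 lower at an unadjusted p under 0.05, against 2.88% and 1.74% of all genes, and 0% of all genes past the adjusted threshold.

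**Figure D3:**
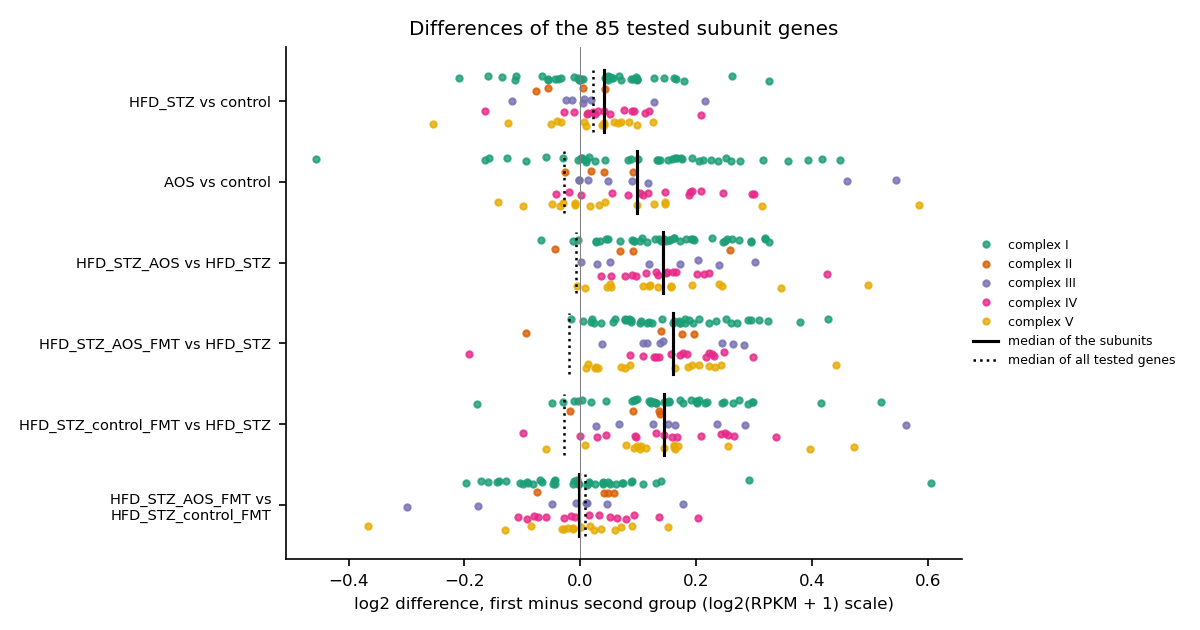
Log2 differences, first minus second group on the log2(RPKM + 1) scale, of the 85 tested subunit genes in 6 comparisons, coloured by complex. Solid bars mark the members' medians, 0.10 to 0.16 for AOS against control and for HFD_STZ with AOS or FMT against HFD_STZ, 0.04 for HFD_STZ against control and near 0 between the 2 FMT groups, and dotted bars the median of all tested genes.

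With both tests pooled as the main effect of AOS (AOS and HFD_STZ_AOS, 6 libraries, against control and HFD_STZ, 6 libraries), 7 of the 85 members rose and none fell, against 1.3% of all genes higher and 1.05% lower. These were Ndufv3 and Ndufb7 of complex I, Uqcr11 of complex III, Cox4i1 and Cox5a of complex IV, and Atp5k and Atp5mpl of complex V. In GENCODE vM21 (GRCm38) they lie at chr17:31520115-31531331 (Ndufv3), chr8:83566671-83571626 (Ndufb7), chr10:80402997-80406830 (Uqcr11), chr8:120668222-120674207 (Cox4i1), chr9:57521274-57532426 (Cox5a), chr5:108433244-108434448 (Atp5k) and chr12:111961375-111966977 (Atp5mpl). The call rests on the processing. With the length trend removed 0 members and 0 of all genes passed, and the count was also 0 without replicate 1 or 3 of AOS, replicate 1 or 2 of HFD_STZ, replicate 1 of HFD_STZ_AOS or replicate 2 of control. Over all settings tried it ran to 25, without replicate 1 of HFD_STZ_AOS_FMT, and the share of all genes called there is not given. Removal of that trend took the log2 differences of the 7 to between 0.06 (Cox5a) and 0.28 (Atp5k), each less than the values given with each gene. The median log2 difference of the members was 0.12, against -0.02 over all genes, with 74 of 85 above 0 against 43% of all genes, and it was 0.04 with the length trend removed. At an unadjusted p under 0.05, 42 members were higher and 1 lower, against 8.59% and 12.1% of all genes, and in 11 all 6 libraries with AOS lay above all 6 without, against 1.16%. By complex, as assigned by symbol, values were higher for 34 of 41 members in complex I, 3 of 4 in complex II, 7 of 8 in complex III, 16 of 16 in complex IV and 14 of 16 in complex V. The test of any difference among the 6 groups passed for 0 members by limma (smallest adjusted p = 0.0658), against 0.0432% of all genes, with 50 at an unadjusted p under 0.05, against 21.1%.

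Ndufv3 had the smallest p. It was 48.3, 46.6 and 45.2 RPKM in HFD_STZ_AOS, against 36.7, 31.97 and 43.3 RPKM in HFD_STZ, beside the AOS and control values above (main effect 0.36 ± 0.06 on the log2 scale, SE, limma adjusted p = 0.0235). Only the third HFD_STZ library came above the lowest of the AOS group. Ndufb7, a membrane-arm subunit that faces the intermembrane space, was 104, 105 and 109 RPKM in AOS, against 88.7, 79.5 and 87.4 RPKM in control. It was 112, 99.1 and 103 RPKM in HFD_STZ_AOS, against 89.1, 86.1 and 98.2 RPKM in HFD_STZ, so that all 6 libraries with AOS were above all 6 without (0.26 ± 0.06, adjusted p = 0.0409).

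In complex III, Uqcr11, its smallest subunit, was 77.7, 56.0 and 75.1 RPKM in AOS, against 55.0, 40.8 and 54.9 RPKM in control. It was 72.0, 65.0 and 69.2 RPKM in HFD_STZ_AOS, against 57.5, 56.8 and 59.7 RPKM in HFD_STZ (main effect 0.35 ± 0.08, SE, limma adjusted p = 0.0460). The groups were apart within each pair, and the second AOS library lay below all 3 HFD_STZ libraries. In complex IV, Cox4i1 was 288, 275 and 282 RPKM in AOS, against 253, 248 and 240 RPKM in control, so that all 6 libraries with AOS were above all 6 without (0.20 ± 0.04, adjusted p = 0.0267). Cox5a, a nuclear subunit on the matrix side, was 234, 222 and 215 RPKM in AOS, against 198, 194 and 196 RPKM in control. It was 226, 224 and 207 RPKM in HFD_STZ_AOS, against 192, 193 and 208 RPKM in HFD_STZ, where the highest HFD_STZ library just passed the lowest of HFD_STZ_AOS (0.17 ± 0.04, adjusted p = 0.0495). Exons of Cox5a overlap Gm26631 on the opposite strand.

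In complex V, Atp5k was 67.0, 64.7 and 69.3 RPKM in HFD_STZ_AOS, against 53.0, 54.5 and 50 RPKM in HFD_STZ, so that with the values above all 6 libraries with AOS were higher than all 6 without (main effect 0.47 ± 0.10 on the log2 scale, SE, limma adjusted p = 0.0326). Atp5mpl, a small proteolipid of the membrane part, was 200, 188 and 201 RPKM in AOS, against 166, 142 and 166 RPKM in control. It was 208, 195 and 195 RPKM in HFD_STZ_AOS, against 163, 176 and 168 RPKM in HFD_STZ, again with no overlap (0.28 ± 0.05, adjusted p = 0.0267). Ndufb3, in the membrane arm of complex I, was at the threshold without passing it (0.24 ± 0.06, adjusted p = 0.05), at 26.7, 25.6 and 26.8 RPKM in AOS, against 23.4, 23.6 and 23.0 RPKM in control.

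The Atp5k promoter is shown because this gene had the largest of the 7 differences and its window holds the NRF1 letters, given in capitals. It is the 250 bases before the RefSeq start at chr5:108434400-108434649, minus strand, 5′ to 3′ (GRCm38.p6). In GENCODE vM21 the gene reaches to 108434448, so part of the window, with most of the NRF1 letters, lies inside the gene there.
Atp5k: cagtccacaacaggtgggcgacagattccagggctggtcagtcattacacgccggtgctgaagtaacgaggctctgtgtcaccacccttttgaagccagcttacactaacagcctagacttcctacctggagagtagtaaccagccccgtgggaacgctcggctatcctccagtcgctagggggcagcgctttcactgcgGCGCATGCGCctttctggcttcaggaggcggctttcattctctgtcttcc
Among the called genes with a promoter in the table, Ndufb7 and Uqcr11 held the ETS letters.

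**Figure D4:**
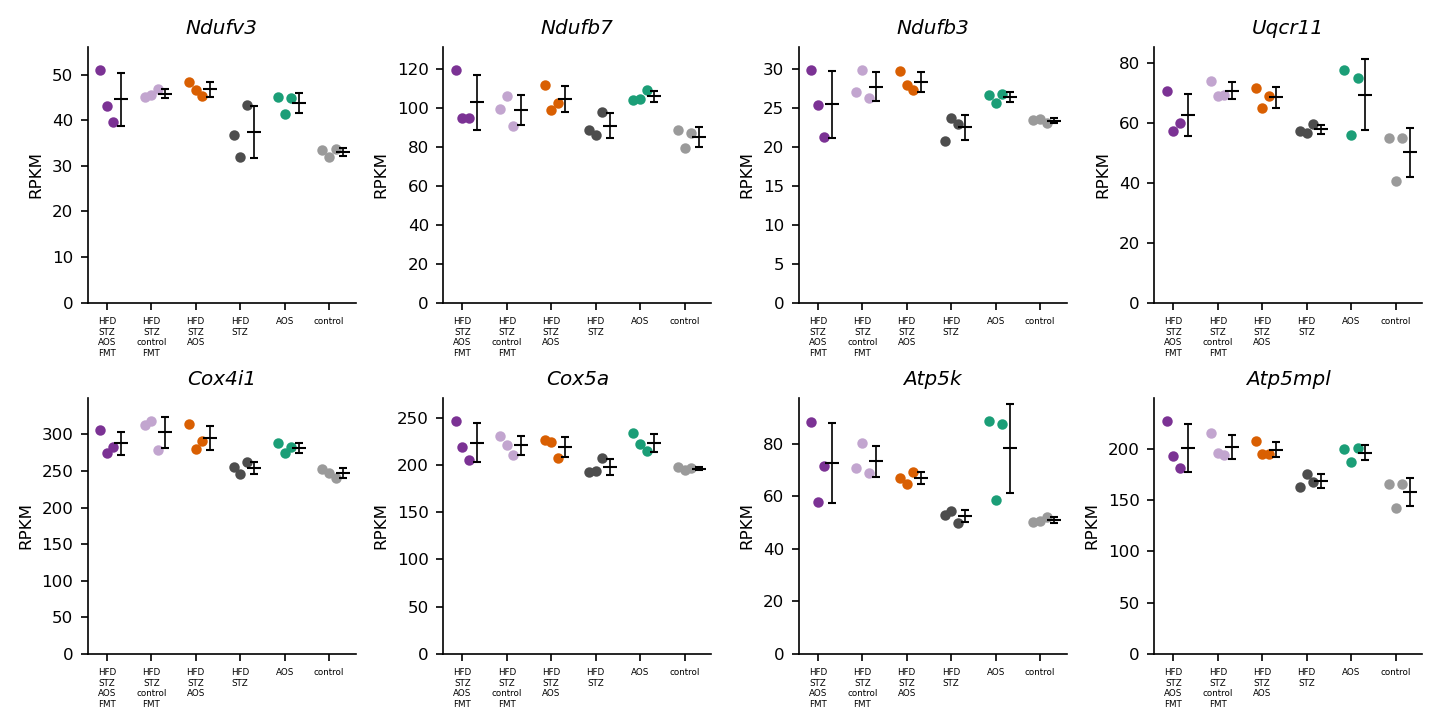
RPKM of the 7 members called in the main effect of AOS and of Ndufb3, by library, with the mean and SD (n = 3). Libraries of AOS and HFD_STZ_AOS lie above those of control and HFD_STZ, without overlap for Cox4i1, Atp5k, Atp5mpl, Ndufb7 and Ndufb3.

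The testis forms did not pass the test of the main effect of AOS. Cox8c came closest, at 442, 458 and 461 RPKM in AOS, against 388, 402 and 401 RPKM in control. It was 455, 447 and 430 RPKM in HFD_STZ_AOS, against 387, 416 and 413 RPKM in HFD_STZ (main effect 0.16 ± 0.05 on the log2 scale, SE, limma adjusted p = 0.0653). All 6 Cox8c values with AOS lay above all 6 without. Cox7b2 was 284, 325 and 255 RPKM in AOS, against 287, 252 and 211 RPKM in control, with overlap (main effect 0.16 ± 0.09, adjusted p = 0.329). Cox6b2 was 557, 654 and 566 RPKM in AOS, against 550, 530 and 555 RPKM in control, which its lowest AOS library barely cleared. Its values in HFD_STZ_AOS, 616, 578 and 479 RPKM, spread around those of HFD_STZ, 537, 506 and 582 RPKM (main effect 0.08 ± 0.06, adjusted p = 0.538).

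Markers of elongating spermatids, which are also short (median 725 bases), were higher beside the subunits in these comparisons. The summed RPKM of 10 such markers was 62400 to 64050 in AOS, against 50950 to 57330 in control, and 58390 to 66590 in HFD_STZ_AOS, against 52420 to 58270 in HFD_STZ. Sums of 10 round spermatid markers overlapped in both pairs. They were 1726 to 1784 RPKM in AOS and 1690 to 1739 RPKM in control. In HFD_STZ_AOS they were 1644 to 1868 RPKM, and 1655 to 1681 RPKM in HFD_STZ. Sums of 8 Sertoli cell markers overlapped between AOS and control. They were 360 to 385 RPKM in HFD_STZ_AOS, above 320.5 to 356 RPKM in HFD_STZ. In the main effect of AOS 4 of the 10 elongating spermatid markers were called, all higher, against 1.3% of all genes, and 2 of 10 spermatocyte markers were called, both lower, against 1.05% of all genes. The 6 Leydig cell markers were all lower without a call, with sums of 2536 to 3457 RPKM in AOS against 3465 to 3988 RPKM in control, and overlapping sums of 3513 to 4128 RPKM in HFD_STZ_AOS and 3592 to 4458 RPKM in HFD_STZ. The 32 cytosolic ribosomal protein genes, which are also short (median 834 bases), had 7 called, all higher, against the same 1.3%, and a median log2 difference of 0.12, the same to 2 decimals as the subunits. The part of these in the subunits' difference was not tested.

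The comparison of HFD_STZ with control asked what the diet with STZ did. No member passed it, and 0% of all genes did. At an unadjusted p under 0.05, 2 members were higher and 2 lower, against 6.16% and 2.13% of all genes (8.3% in either direction). The members' median log2 difference was 0.04, against 0.02 over all genes, with 57 of 85 above 0 against 59.5% of all genes, and 9 members did not overlap upwards and 6 downwards, against 11.7% and 4.53% of all genes. Ndufb9, a complex I accessory subunit, was 107, 106 and 109 RPKM in HFD_STZ, against 95.2, 96.6 and 94.3 RPKM in control, with no overlap (0.17 ± 0.07, SE, limma adjusted p = 0.524). Ndufb5 lay the other way, with 104, 106 and 103 RPKM in control above its HFD_STZ values (-0.11 ± 0.05, adjusted p = 0.590). Exons of Ndufb9 overlap Gm49356 on the same strand.

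Pooled over AOS as the main effect of HFD_STZ (HFD_STZ_AOS and HFD_STZ against AOS and control), 0 members passed in limma, against 2.85% of all genes, and 11 were higher and 0 lower at an unadjusted p under 0.05, against 14.3% and 4.42%. The median was 0.05, against 0.03 over all genes, with 60 of 85 above 0 against 64.7% of all genes, and it was -0.0032 with the length trend removed. Atp5b was 375, 375 and 376 RPKM in HFD_STZ_AOS and 369, 349 and 367 RPKM in HFD_STZ, against 344, 349 and 343 RPKM in AOS and 360, 347 and 351 RPKM in control (0.08 ± 0.02 on the log2 scale, SE, adjusted p = 0.0663). The second HFD_STZ library fell inside the AOS and control range, and the 3 HFD_STZ_AOS libraries were the highest of the 12. Fitted on these 12 libraries alone, 2 members passed, Atp5l and Ndufs7, both higher with HFD_STZ, and 133 of the 13874 genes did.

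Both FMT groups were set against HFD_STZ, and they share its 3 libraries. In HFD_STZ_AOS_FMT 82 of 85 members had higher values, against 43.7% of all genes, with a median log2 difference of 0.16 against -0.02 over all genes, and 0 were called, against 0.0144% of all genes. At an unadjusted p under 0.05, 34 were higher and 0 lower, against 6.31% and 8.14%. In 29 members the groups did not overlap upwards and in 0 downwards, against 7.82% and 11.6% of all genes. The median was 0.10 without replicate 1 of HFD_STZ_AOS_FMT. In HFD_STZ_control_FMT 76 of 85 had higher values, against 41.1% of all genes, with a median of 0.14 against -0.03, and 0 were called, against 0.00721% of all genes. There, 35 were higher and 0 lower at an unadjusted p under 0.05, against 6.06% and 10.1%, and 39 did not overlap upwards and 0 downwards, against 8% and 16%. With the length trend removed the medians were 0.06 and 0.08.

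Atp5c1, the gamma subunit that turns within the ATP synthase, had the smallest p in HFD_STZ_AOS_FMT, at 144, 129.9 and 130.0 RPKM, against 121, 116 and 116 RPKM in HFD_STZ (0.19 ± 0.05, SE, limma adjusted p = 0.196). Atp5h, subunit d of the stalk, was 336, 309 and 299 RPKM in HFD_STZ_AOS_FMT, against 266, 264 and 272 RPKM in HFD_STZ (0.23 ± 0.06, adjusted p = 0.204). Neither gene overlapped between the groups. In HFD_STZ_control_FMT, Cox4i1 was 312, 318 and 279 RPKM, all above HFD_STZ (0.25 ± 0.05, adjusted p = 0.125). Uqcrc1, a core subunit of complex III, was 181, 198 and 180.0 RPKM in HFD_STZ_control_FMT, against 165, 163 and 170 RPKM in HFD_STZ (0.16 ± 0.04, adjusted p = 0.125), also without overlap. Ndufs6, a complex I subunit that binds zinc, was 133, 128 and 128 RPKM in HFD_STZ_control_FMT and 122, 117 and 112 RPKM in HFD_STZ_AOS_FMT, against 79.9, 97.8 and 93.0 RPKM in HFD_STZ. Its exons overlap Mrpl36 on the opposite strand.

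Of the testis forms, Cox7b2 was 372, 319 and 329 RPKM in HFD_STZ_control_FMT, against 304, 246 and 258 RPKM in HFD_STZ, with no overlap (0.34 ± 0.13, SE, limma adjusted p = 0.218). Cox8c was 492, 499 and 418 RPKM in HFD_STZ_control_FMT, again wholly above HFD_STZ (0.21 ± 0.06, adjusted p = 0.156). In HFD_STZ_AOS_FMT both overlapped with HFD_STZ, Cox7b2 at 348, 309 and 289 RPKM and Cox8c at 486, 414 and 431 RPKM. Cox6b2 was 643, 562 and 524 RPKM in HFD_STZ_AOS_FMT and 605, 582 and 550 RPKM in HFD_STZ_control_FMT, and overlapped with HFD_STZ in both.

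Other lists moved beside the subunits in the FMT groups too. Of all genes, 43.7% in HFD_STZ_AOS_FMT and 41.1% in HFD_STZ_control_FMT were above 0 against HFD_STZ, and 6.31% and 6.06% were higher at an unadjusted p under 0.05. The 32 cytosolic ribosomal protein genes had medians of 0.14 in HFD_STZ_AOS_FMT and 0.16 in HFD_STZ_control_FMT against HFD_STZ, with 32 and 30 above 0 and 17 and 21 higher at an unadjusted p under 0.05. Of the 10 elongating spermatid markers 9 and 8 were above 0, with 4 and 3 higher at an unadjusted p under 0.05. Fat markers also had higher values, with summed RPKM of the 6 adipose genes of 53.5 to 150 in HFD_STZ_AOS_FMT and 44.0 to 153 in HFD_STZ_control_FMT, against 14.9 to 27.0 in HFD_STZ. All 6 had a positive difference in each, with 5 and 4 at an unadjusted p under 0.05 and none called. The 10 epididymis markers summed to 31.2 to 373 RPKM in HFD_STZ_AOS_FMT and 10.1 to 233 RPKM in HFD_STZ_control_FMT, against 7.47 to 7.95 RPKM in HFD_STZ. Without the 4 libraries high in Crisp1 the subunits' medians were 0.20 in HFD_STZ_AOS_FMT and 0.14 in HFD_STZ_control_FMT. Muscle and brown fat markers, whose tissues are rich in mitochondria, summed to at most 1.91 and 6.49 RPKM in any library.

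The comparison of HFD_STZ_AOS_FMT with HFD_STZ_control_FMT asked whether the source of the FMT made a difference. No member passed, against 0.0216% of all genes, and 2 were higher and 2 lower at an unadjusted p under 0.05, against 2.92% and 1.66%. In 2 members the groups did not overlap upwards and in 4 downwards, against 5.15% and 3.27%. Higher and lower values were nearly even, at 42 and 43 of the 85 (53.9% of all genes were higher), with a median log2 difference of -0.003 against 0.01 over all genes. Ndufa9 was 68.9, 69.5 and 65.2 RPKM in HFD_STZ_AOS_FMT, against 73.9, 73.5 and 71.5 RPKM in HFD_STZ_control_FMT, with no overlap (-0.10 ± 0.04, SE, limma adjusted p = 0.999). The median was -0.07 without replicate 1 of HFD_STZ_AOS_FMT and 0.07 without the 4 libraries high in Crisp1.

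The coefficient of variation over the 18 libraries was lowest for Uqcrc2, the other core subunit of complex III, at 2.7%, and for Atp5b at 3.2%. Ndufa9, Ndufs1 and Sdha followed at 3.5% to 3.6%. At the other end, apart from members that averaged under 6 RPKM, Ndufs4, an accessory subunit known from human Leigh syndrome, varied by 28.4% and differed between libraries of 1 group. It was 27.1, 13.6 and 23.1 RPKM in AOS, against 18.9, 21.9 and 13.5 RPKM in control, and 26.6, 23.4 and 11.6 RPKM in HFD_STZ_AOS, against 10.2, 23.4 and 17.3 RPKM in HFD_STZ. Atp5e, the epsilon subunit of the ATP synthase, varied by 23.8% and was 40.2 RPKM in 1 library of HFD_STZ_AOS_FMT, whose other 2 were at 96.3 and 90.0 RPKM. In both genes the spread within groups was as wide as that between them, and none of their comparisons passed the test.

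Differences of the members went with transcript length. Over the 84 tested members with a length, Spearman's rho between length and log2 difference was -0.435 in the main effect of AOS, -0.350 for AOS against control, -0.438 for HFD_STZ_AOS against HFD_STZ, -0.309 for HFD_STZ_AOS_FMT against HFD_STZ and -0.338 for HFD_STZ_control_FMT against HFD_STZ. It was 0.104 between the FMT groups. These are descriptions across genes that share their libraries. In the main effect of AOS the 42 shorter members had a median of 0.16 and the 42 longer ones a median of 0.10, and 40 and 34 of them were above 0. Sdha at 2900 bases, Ndufs1 at 2626 and Atp5a1 at 2573 had differences of -0.04, -0.08 and -0.05, while Atp5g1 at 2676 bases had 0.05, and Ndufb2 at 2413 and Sdhc at 1993 bases had 0.16 and 0.17. None of these was called.

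**Figure D5:**
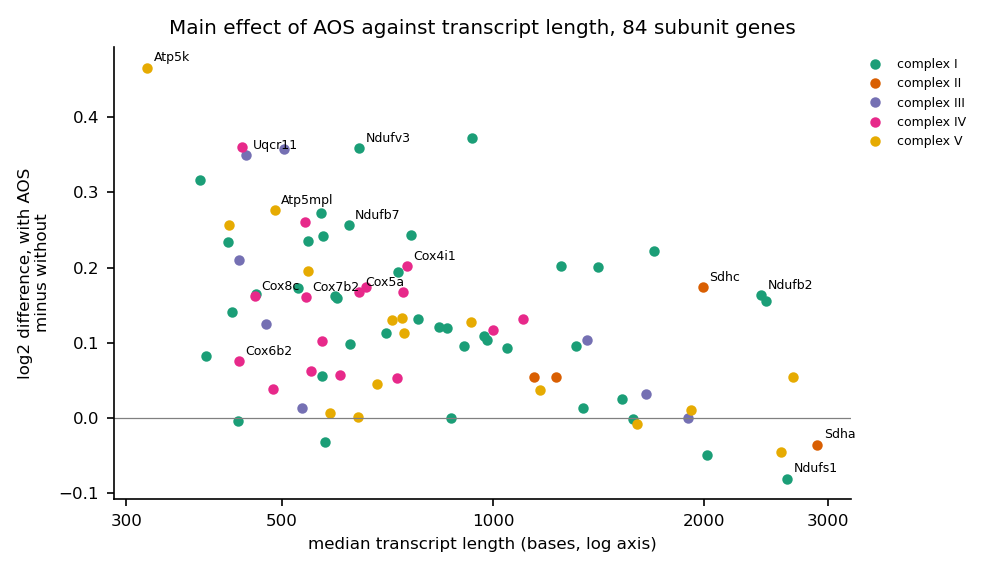
Log2 difference in the main effect of AOS against median transcript length (log axis) of the 84 tested subunit genes with a length, coloured by complex. The shortest, Atp5k, has the largest difference, and at the long end Sdha and Ndufs1 lie below 0 and Atp5g1 above it.

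Other genes of the pathway were read from lists of non-members. Of the 48 tested assembly factors, which build the complexes without being part of them, 31 had higher values in the main effect of AOS against 43% of all genes, and 2 were called, both higher, against 1.3% of all genes. At an unadjusted p under 0.05 there were 10, against 20.7% of all genes. Uqcc2, needed to make cytochrome b of complex III, was 341, 341 and 347 RPKM in AOS, against 291, 269.9 and 291 RPKM in control. It was 367, 321 and 347 RPKM in HFD_STZ_AOS, against 293, 276 and 307 RPKM in HFD_STZ, with no overlap (0.26 ± 0.05 on the log2 scale, SE, limma adjusted p = 0.0320). The other was Ndufaf8, an assembly factor of complex I (0.18 ± 0.04, adjusted p = 0.0448). In the main effect of HFD_STZ 1 of the 48, Uqcc3, was called, higher, where 2.4% of all genes were, so the count is near the background.

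The citric acid cycle and pyruvate dehydrogenase genes, which supply the chain with electrons, were read in the same way, without a test of their difference from the subunits. Of 18 tested, 8 were above 0 and 10 below in the main effect of AOS, with a median log2 difference of -0.02, the same to 2 decimals as over all genes, and 0 were called by limma, with 2 at an unadjusted p under 0.05, against 20.7% of all genes. Their median transcript length was 2422 bases, far above that of the subunits. Of the 10 tested regulators of mitochondrial biogenesis 5 were above 0 and 5 below, and 0 were called, with 4 at an unadjusted p under 0.05, against the same 20.7%. Tfam, which packages mitochondrial DNA, had 0.13 ± 0.05, and Gabpa, the DNA-binding subunit of the ETS factor NRF2, had -0.15 ± 0.04 (SE). Of the 8 carriers and other subunits 0 were called and 0 had an unadjusted p under 0.05, with Cyct at 0.08 ± 0.05.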

How the data were processed

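RNA of whole testis was measured by RNA-seq in 18 libraries of 3 each in 6 groups. Testes were frozen, and RNA from Trizol and a mini kit went into Illumina libraries, per the labels' protocols. Bowtie 0.12.2 and build mm10 are named by the submitters' processing notes. How genes were counted, on which annotation and with or without strand is not given in the sources used here. A single deposited file holds RPKM by gene symbol and library. The unit was inferred from column sums and transcript lengths, and whether reads or fragments were counted is not stated. RPKM divides by length and by the library total, so a change in the yield of long transcripts or in abundant ones moves all values, and the depth behind each value is unknown.

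Of 20985 rows, the 6 rows of 3 repeated symbols were left out. Values were taken as log2(RPKM + 1), and the 13874 genes at 1 RPKM or more in at least 3 libraries were fitted with limma 3.58.1 (R 4.3.3, prior variance with a trend on the mean), with 1 coefficient per group, 12 residual and 3.71 prior degrees of freedom. Tests were two-sided, with Benjamini-Hochberg adjustment over all genes tested and a threshold of 0.05. Fold changes on this scale understate those of low genes. The fit was also run on simulated data with added differences of known size, independent noise per gene and no slope on transcript length. Such data cannot show how that slope bears on the calls. Transcript lengths, positions and overlaps came from GENCODE vM21. Promoters came from a set of RefSeq starts (GRCm38.p6) that covered 68 of the 87 members. Python 3.11.15 and matplotlib 3.10.9 made the other tables and the figures.

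The members, gene lists and comparisons were chosen with earlier results of these data known. Members named are the markers Cox4i1, Cox5a and Ndufb3, the testis and other tissue forms with their counterparts, the complex II genes, those called, the 5 with the smallest p in each direction of a comparison, and the highest and lowest of each complex; of these the text gives those its results turn on. Ndufs4, Atp5e, Uqcr10, Ndufb2 and the longest members were named after their values were seen. Alternatives were median-ratio scaling, no filter, a pseudocount of 0.1, a fit on the groups compared alone, robust empirical Bayes, a block on the replicate number, removal of a lowess trend on transcript length (span 0.3) and omission of each library. The omission of the 4 libraries with Crisp1 above 100 RPKM was chosen after seeing the data.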

Additional observations from a re-analysis of the deposited data

How the results depend on the processing

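The count of 7 members called in the main effect of AOS was 4 with median-ratio scaling, 3 without the filter, 22 in the fit on the groups compared alone, 0 with the length trend removed and 2 without the 4 libraries high in Crisp1. Omitting 1 library at a time moved it between 0 and 25. It was 3 without replicate 1 of control and 12 without replicate 3 of HFD_STZ_AOS_FMT. In the main fit 1.3% of all genes were called higher in the main effect of AOS. Apart from the removal of the length trend, shares of all genes called under the other settings are not given for this effect. A change in these counts is therefore not read as particular to the members. For the main effect of HFD_STZ the count of 0 became 2 in the fit on the groups compared alone and 0 to 1 with a library omitted. With a library omitted the counts ran between 0 and 1 for AOS against control (1 without replicate 2 of AOS), 0 and 2 for HFD_STZ_control_FMT against HFD_STZ (2 without its replicate 3), and 0 and 6 for any difference among the 6 groups (6 without replicate 1 of HFD_STZ_AOS_FMT). The fit on the groups compared gives no value for that last test, and Ndufb4b, which has no annotated length, is left out where the length trend is removed. The median difference moved to 0.0392 for HFD_STZ_AOS against HFD_STZ and to 0.0617 for HFD_STZ_AOS_FMT against HFD_STZ with the length trend removed. Each of the 7 called members kept a positive difference in all 26 alternatives, but with the length trend removed the log2 differences were smaller: 0.25 for Ndufv3, 0.11 for Cox4i1, 0.14 for Atp5mpl, 0.28 for Atp5k, 0.14 for Ndufb7, 0.20 for Uqcr11 and 0.06 for Cox5a (limma adjusted p = 0.0742 to 0.330). Ndufv3 and Atp5mpl were called in 19 of the 26, Cox4i1 in 18, Atp5k in 16, Ndufb7 in 13, and Uqcr11 and Cox5a in 8 each. Apart from the removal of the length trend, whose construction takes out differences shared by short transcripts, the cause of these moves was not tested. Deviations of libraries with the same replicate number correlated between -0.246 and 0.411, which neither shows nor excludes that the numbers pair the libraries. The summed level of the members was lowest in replicate 3 in both FMT groups, HFD_STZ_AOS, AOS and control, but not in HFD_STZ. With the number as a replicate block 10 members were called in the main effect of AOS. No value changed sign past the threshold in any alternative. Unknown depth limits what can be said of members near 1 RPKM, such as Ndufb4b and Cox4i2.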
